A study of Homo sapiens with 6 samples.

Results

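This account concerns 10 genes of the integrated stress response and its amino acid arm, compared between ZR-75-30 cells given a CDK12 lentivirus and cells given an empty one. The genes were chosen by name, as the rows of the deposited count files whose symbol is ATF4, ATF5, DDIT3, TRIB3, ASNS, CHAC1, CEBPB, CEBPG, DDIT4 or PSAT1. All 10 symbols are among the 26364 in the files. ZR-75-30 is an established human breast adenocarcinoma line of epithelial cells with amplified ERBB2. The control group is 3 libraries from cells infected with the pLVX virus alone, and the CDK12 group is 3 libraries from cells infected with pLVX-CDK12. Polyadenylated RNA was sequenced. Neither the time after infection nor any selection of infected cells is stated in the labels, nor whether replicates came from separate infections, so the p-values measure only the spread between these libraries.

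The integrated stress response begins with kinases that phosphorylate the initiation factor eIF2 when amino acids run short, unfolded proteins collect in the endoplasmic reticulum (ER), heme is lacking or double-stranded RNA is present. General translation then slows, while the mRNA of ATF4, a basic leucine zipper transcription factor, is translated more. ATF4 pairs with C/EBP proteins and switches on genes of amino acid supply, redox balance and, through DDIT3 (CHOP), cell death. Because ATF4 is controlled to a large part by translation, its mRNA level does not report its protein level, and no protein was measured here. CDK12 is a kinase of RNA polymerase II elongation, and the series title names its targets as what was sought.

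Factors of the ATF4 and C/EBP pairs are known to bind a composite C/EBP-ATF response element of the letters TGATGNAAN. The windows searched ran from 250 bases before to 50 bases after each start in the RefSeq promoter table (GRCh38.p14), on both strands, 19 windows for the 10 genes. Matches were in windows of 3 of the 10 genes, ASNS, CHAC1 and CEBPG. In that table, 4.45% of the 27305 genes and 3.61% of the 35116 windows have a match. The 10 genes were chosen by name as genes of this pathway, so these shares are a description only and no difference was tested. The cAMP response element TGACGTCA, found in 2.25% of genes, and the ER stress response element (ERSE), found in 0.0916%, matched none of these windows. A match is a run of letters, not a shown binding site, and no match says only that the letters are not in the window. The 250 bases before the start are shown for the 3 windows with a match, because they hold the letters of the element. They are also shown for the first listed windows of DDIT3 and ATF5, because these are the genes with the largest changes below. They read 5′ to 3′ on the gene's strand, with matched letters in capitals. Positions count from the start, with -1 just before it. The match of CHAC1 is on the opposite strand.
ASNS, chr7:97872409-97872658, minus strand, match from position -68: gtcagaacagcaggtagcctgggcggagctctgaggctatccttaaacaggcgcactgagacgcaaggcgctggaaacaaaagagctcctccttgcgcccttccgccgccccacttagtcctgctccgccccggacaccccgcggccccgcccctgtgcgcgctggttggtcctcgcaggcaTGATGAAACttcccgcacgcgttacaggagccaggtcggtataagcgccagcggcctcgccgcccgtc
CHAC1, chr15:40953221-40953470, plus strand, match from position -210: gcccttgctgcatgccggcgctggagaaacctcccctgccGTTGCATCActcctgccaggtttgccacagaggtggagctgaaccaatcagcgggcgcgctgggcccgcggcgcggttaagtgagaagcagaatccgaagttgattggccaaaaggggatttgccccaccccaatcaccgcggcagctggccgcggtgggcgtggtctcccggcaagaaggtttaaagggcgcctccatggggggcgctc
CEBPG, chr19:33373863-33374112, plus strand, the second of its listed starts, match from position -42: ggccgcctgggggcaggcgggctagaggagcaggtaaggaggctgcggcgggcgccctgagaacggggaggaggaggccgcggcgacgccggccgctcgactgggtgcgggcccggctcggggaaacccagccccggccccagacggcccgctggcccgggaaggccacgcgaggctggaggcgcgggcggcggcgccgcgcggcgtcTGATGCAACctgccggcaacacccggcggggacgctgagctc
DDIT3, chr12:57520515-57520764, minus strand, no match: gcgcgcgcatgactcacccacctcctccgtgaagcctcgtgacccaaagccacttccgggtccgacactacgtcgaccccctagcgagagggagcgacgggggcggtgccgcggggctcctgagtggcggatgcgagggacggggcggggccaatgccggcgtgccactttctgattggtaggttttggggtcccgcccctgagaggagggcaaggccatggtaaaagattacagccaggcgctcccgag
ATF5, chr19:49928656-49928905, plus strand, no match: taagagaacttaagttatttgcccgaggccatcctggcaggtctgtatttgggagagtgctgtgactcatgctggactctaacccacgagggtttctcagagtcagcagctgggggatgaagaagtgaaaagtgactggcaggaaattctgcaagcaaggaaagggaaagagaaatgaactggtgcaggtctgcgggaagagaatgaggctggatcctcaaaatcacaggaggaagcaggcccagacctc
The 3 genes with a match in these windows, ASNS, CHAC1 and CEBPG, did not pass the test in these libraries, as described below. Bases outside the windows were not searched, so the other genes cannot be said to lack the element.

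The libraries held 21178163 to 26543653 counts. Levels are given as CPM, counts per 1000000 counts of a library, after TMM scaling, a correction for library composition. CDK12 itself ranged from 72.8 to 81.8 CPM without the CDK12 virus and from 2010 to 2240 CPM with it, so each library matched its label. All 8 epithelial markers looked at were above 5 CPM, and their sum was 13600 to 14200 CPM in the control libraries and 11900 to 12500 CPM in the others. Most of that sum was ERBB2, at 8338 to 8829 and 7152 to 7645 CPM. KRT8, KRT18, KRT19, ESR1 and GATA3 were also lower in every CDK12 library than in every control. EPCAM overlapped (183.7 to 196.4 and 179.7 to 191.8 CPM), and CDH1 was higher with CDK12 (15.97 to 18.02 and 18.06 to 20.51 CPM). Of 15 fibroblast, blood and endothelial markers, COL1A1 was the 1 above 5 CPM. The 6 fibroblast markers summed to 46.6 to 51.4 CPM without and 60.3 to 71.2 CPM with CDK12. Nearly all of that sum was COL1A1, at 45.4 to 50.3 and 60.0 to 70.8 CPM. COL3A1 went the other way (0.568 to 0.624 and 0.0372 to 0.167 CPM), as did COL1A2 (0.2197 to 0.3837 and 0 to 0.1115 CPM). DCN, LUM and PDGFRB were at most 0.132 CPM in any library. The 5 blood markers summed to 3.37 to 3.6 and 1.07 to 1.54 CPM, with HBB at 0. Most of the control sum was PTPRC, at 2.83 to 3.03 and 0.292 to 0.412 CPM, while CD14 went the other way (0.325 to 0.576 and 0.659 to 1.04 CPM). The 4 endothelial markers summed to 2.45 to 3.29 and 1.56 to 2.17 CPM. The part of these markers in the results below was not tested. Control replicate 1 stood apart in 8 interferon-stimulated genes, with a mean of 5.78 log2 CPM against 4.87 and 4.76 in the other controls and 1.56 to 1.68 in the CDK12 libraries. In RNA from whole cultures, fewer expressing cells and less RNA per cell cannot be told apart.

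Among the 10 genes, DDIT3 rose, ATF5 fell and DDIT4 rose slightly, while ATF4, TRIB3, ASNS, CHAC1, CEBPB and CEBPG did not pass the test and PSAT1 was too low to test. The test was edgeR's quasi-likelihood test over all genes, with an adjusted p threshold of 0.05. The 9 genes tested had passed a filter on low counts, and 2 were called higher, 1 lower and 6 neither. Across all 14665 genes tested, 35.1% passed, 16.2% higher and 18.9% lower, so 3 of 9 is near the background and says nothing particular of the group. The groups' libraries did not overlap for 5 of the 9 genes, against 45.6% of all genes (4 higher against 22.1% and 1 lower against 23.6%). The median log2 fold change was 0.09 over the 9 genes and 0.003 over all genes tested. Without regard to sign, the median was 0.0912 over the 9 genes and 0.142 over all genes tested. Scaled by upper quartiles or by total counts in place of TMM, 4 of the genes were higher and 1 lower. With 1 library left out, the number higher was 1 without CDK12 replicate 2, control replicate 1 or control replicate 2, and the number lower was 1 in every such fit.

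**Figure D1:**
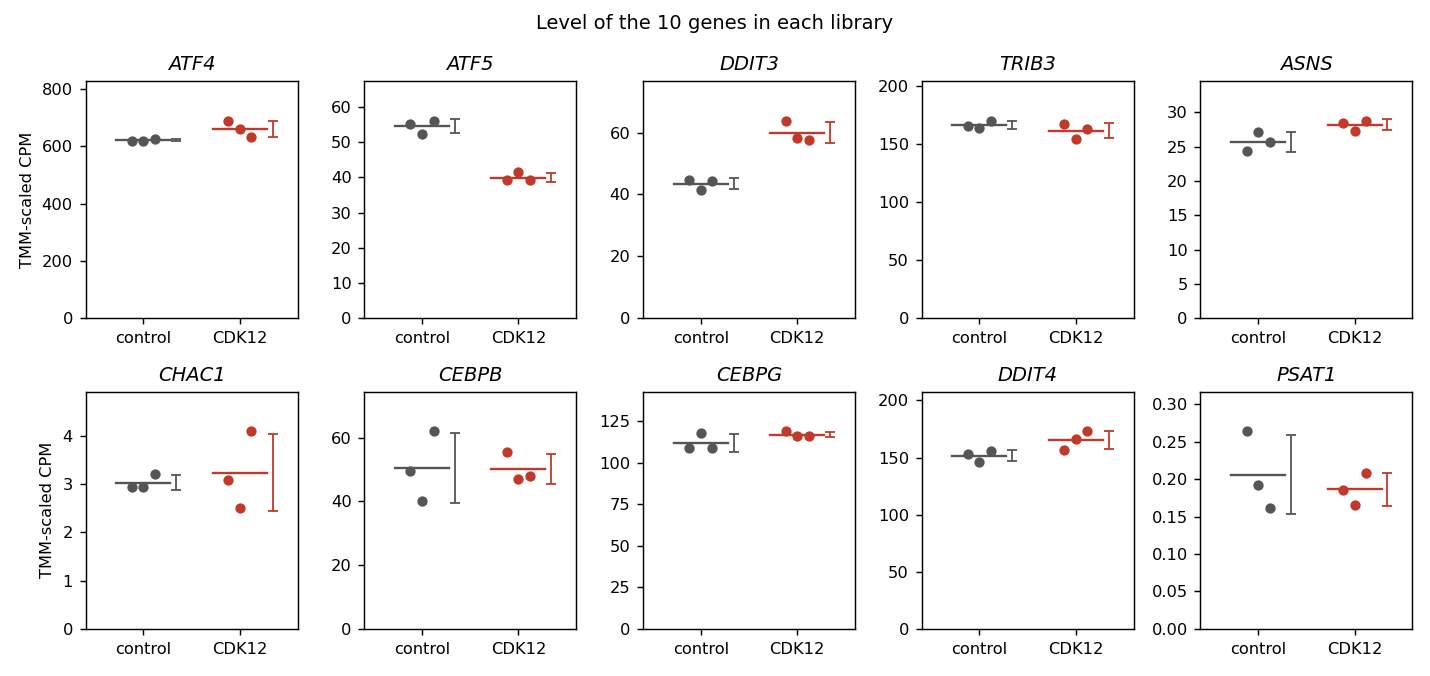
TMM-scaled CPM of each of the 10 genes (vertical axes, each from 0) in the 3 control libraries (grey) and the 3 CDK12 libraries (red). Horizontal lines are means and bars are ± SD of 3 libraries. DDIT3 at 57.7 to 63.9 CPM with CDK12 lay above every control, ATF5 at 39.1 to 41.5 CPM lay below every control, and most other panels show groups at nearly the same level.

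ATF4, the master factor of the response, was at 620, 618 and 627 CPM in control replicates 1 to 3 and at 690, 661 and 634 CPM in CDK12 replicates 1 to 3. Every CDK12 library was above every control, with CDK12 replicate 3 close to the highest control. The means (± SD over the 3 libraries of a group, as everywhere below) were 621 ± 4.57 and 662 ± 28 CPM. The difference of 0.09 in log2 (SE 0.04, adjusted p = 0.0783) did not pass. Its 95% interval, not adjusted for the number of genes, ran from 0.01 to 0.17, and gives the sizes of change that these libraries allow. ATF4 passed with upper-quartile factors (log2 fold change 0.13, adjusted p = 0.0154), with total counts (0.13, adjusted p = 0.0104) and without CDK12 replicate 3 (0.12, adjusted p = 0.036). Over all 14 alternatives its adjusted p ran from 0.0104 to 0.247.

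DDIT3 encodes CHOP, a C/EBP-like factor that is induced by ATF4 and favours cell death under lasting stress. It was at 44.8, 41.5 and 44.2 CPM in the controls and at 63.9, 58.3 and 57.7 CPM with CDK12. The groups did not overlap, and CDK12 replicate 1 was the highest library. The mean rose 1.38-fold, from 43.5 ± 1.75 CPM to 60.0 ± 3.42 CPM, or by 0.46 in log2 (SE 0.05, adjusted p = 1.64e-07). Among all genes tested, 7.1% had a log2 fold change as high or higher. DDIT3 passed in all 14 alternatives, with log2 fold changes of 0.42 to 0.51 and adjusted p of 1.24e-14 to 1.51e-05. The gene overlaps MARS, the methionyl-tRNA synthetase gene on the opposite strand, in GENCODE 29. MARS had a mean of 225 ± 1.04 CPM in controls against 207 ± 2.81 CPM with CDK12 (log2 fold change -0.12, adjusted p = 0.0179). That call was lost with upper-quartile factors (0.0979), total counts (0.119), and without control replicate 1 (0.0668) or control replicate 3 (0.055). DDIT3 also overlaps MBD6 on the opposite strand (log2 fold change -0.04, not passed). On the same strand it overlaps AC022506.1, a protein-coding gene, and the microRNA gene MIR616. The part of reads shared with MARS or these genes in the rise of DDIT3 was not tested. The labels do not state whether counting used the strand.

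ATF5 encodes a relative of ATF4 whose mRNA is likewise translated more when eIF2 is phosphorylated, and which acts in the mitochondrial stress response. It was at 55.1, 52.4 and 56.1 CPM in the controls and at 39.1, 41.5 and 39.2 CPM with CDK12. The groups were well apart, and libraries within a group were close. The level fell 1.37-fold, from 54.5 ± 1.93 to 39.9 ± 1.34 CPM (log2 fold change -0.45, SE 0.05, adjusted p = 1.81e-07), and 4.54% of all genes tested fell as far or further. ATF5 passed in all 14 alternatives, with log2 fold changes of -0.48 to -0.41. NUP62, a nuclear pore gene on the opposite strand that overlaps ATF5 in GENCODE 29, fell too, from 158 ± 2.64 to 135 ± 7.17 CPM (log2 fold change -0.23). IL4I1 and AC011452.1, on the opposite strand, and the microRNA gene MIR4751, on the same strand, also overlap ATF5. The part of reads shared with NUP62 or these genes in the fall of ATF5 was not tested.

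CEBPB and CEBPG encode partners with which ATF4 and CHOP form dimers. CEBPB was at 49.6, 40.0 and 62.0 CPM in the controls and at 55.5, 47.1 and 47.9 CPM with CDK12. The controls alone spanned the CDK12 range, with control replicate 3 the highest and control replicate 2 the lowest of the 6 libraries. The log2 fold change was -0.01 (95% interval -0.20 to 0.17, adjusted p = 0.921), and it was 0.165 without control replicate 3 (adjusted p = 0.101). CEBPG was at 109, 118 and 109 CPM in the controls and at 119, 116 and 116 CPM with CDK12. Control replicate 2 lay inside the CDK12 range, and the log2 fold change was 0.06 (95% interval -0.03 to 0.15, adjusted p = 0.328).

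Of the stress effectors TRIB3, DDIT4 and CHAC1, DDIT4 passed the test and the other two did not. TRIB3, a pseudokinase that is induced by ATF4 and CHOP and restrains ATF4, was at 165, 164 and 170 CPM in the controls and at 167, 154 and 163 CPM with CDK12. The groups overlapped (log2 fold change -0.04, 95% interval -0.13 to 0.05, adjusted p = 0.474). CHAC1, an enzyme that degrades glutathione and a known ATF4 target, was at 2.94, 2.93 and 3.21 CPM in the controls and at 3.09, 2.51 and 4.09 CPM with CDK12. CDK12 replicates 2 and 3 were the lowest and highest of all libraries, from 61 and 98 counts. The log2 fold change of 0.09 did not pass (95% interval -0.24 to 0.41, adjusted p = 0.705).

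DDIT4, also called REDD1, restrains the growth kinase complex mTORC1 and responds to ATF4, low oxygen and glucocorticoids. It was at 153, 146 and 156 CPM in the controls and at 157, 166 and 173 CPM with CDK12. The groups did not overlap, but CDK12 replicate 1 was close to control replicate 3. The mean rose 1.09-fold, from 151 ± 5.33 CPM to 165 ± 7.91 CPM, or by 0.13 in log2 (SE 0.04, adjusted p = 0.0271). The call was lost when control replicate 1 (adjusted p = 0.0594), control replicate 2 (0.146), CDK12 replicate 2 (0.0614) or CDK12 replicate 3 (0.145) was left out, where the log2 fold change was 0.09 to 0.13. Over all 14 alternatives its adjusted p ran from 0.00399 to 0.146.

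The 2 enzymes of amino acid synthesis were at very unequal levels. ASNS, asparagine synthetase, the textbook target of amino acid shortage, was at 24.3, 27.2 and 25.7 CPM in the controls and at 28.5, 27.3 and 28.8 CPM with CDK12. The groups were just apart, since control replicate 2 nearly met CDK12 replicate 2. The log2 fold change of 0.13 (SE 0.06, 95% interval 0.00 to 0.26) had an adjusted p of 0.101 and did not pass, but passed with upper-quartile factors (0.17, adjusted p = 0.0361) and total counts (0.18, adjusted p = 0.0304). Over all 14 alternatives its adjusted p ran from 0.0304 to 0.346. ASNS overlaps the transcript gene AC079781.5 on the same strand and the pseudogene AC005326.1 on the opposite strand in GENCODE 29. The part of shared reads was not tested. PSAT1, phosphoserine aminotransferase of serine synthesis, had 6, 4 and 4 counts in the controls and 5, 4 and 5 counts with CDK12, 14 in all in each group. That is 0.162 to 0.264 CPM, close to the level of 3 counts (0.112 to 0.144 CPM across libraries). PSAT1 did not pass the filter on low counts, so it was not tested in the reported fit and nothing is said of its change. The other 2 enzymes of the same route, named here for that reason, were well above the level of PSAT1. PHGDH rose from 7.66 ± 0.98 to 9.72 ± 0.83 CPM (log2 fold change 0.34, adjusted p = 0.00993). Leaving out control replicate 2 (0.0523), control replicate 3 (0.0535) or CDK12 replicate 3 (0.0622) ended that call. PSPH had 16.4 ± 1.38 CPM in controls and 18.2 ± 0.51 CPM with CDK12 and did not pass (adjusted p = 0.128, and 0.0477 with total counts).

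**Figure D2:**
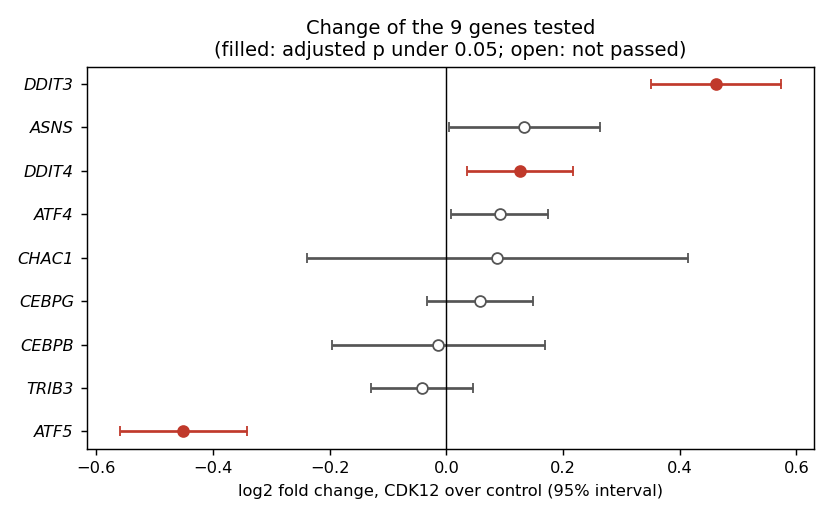
Log2 fold change of CDK12 over control (horizontal axis) for the 9 genes tested, with 95% intervals that are not adjusted for the number of genes. Filled points passed an adjusted p of 0.05 (DDIT3 0.46, DDIT4 0.13 and ATF5 -0.45) and open points did not.

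Levels can be compared between genes only per length. ATF4, ASNS and PSAT1 have annotated pseudogene copies with which reads could be shared, so their levels are less certain. Divided by the exon length in GENCODE 29, which need not be the annotation used for counting, ATF4 was highest in control cells at 247 ± 1.82 CPM per kilobase (kb). DDIT4 followed at 86.7 ± 3.05, TRIB3 at 57.4 ± 1.00 and DDIT3 at 33.3 ± 1.34 CPM per kb. CEBPB (25.8 ± 5.63), CEBPG (25.4 ± 1.17) and ATF5 (21.2 ± 0.75 CPM per kb) came next, and the CEBPB range covers the means of the other two. ASNS was at 10.3 ± 0.59, CHAC1 at 1.47 ± 0.08 and PSAT1 at 0.0941 ± 0.02 CPM per kb. With CDK12, DDIT3 was at 45.9 ± 2.62 and ATF5 at 15.5 ± 0.52 CPM per kb, so that ATF5 lay further below both C/EBP genes (CEBPB 25.7 ± 2.38, CEBPG 26.5 ± 0.43).

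**Figure D3:**
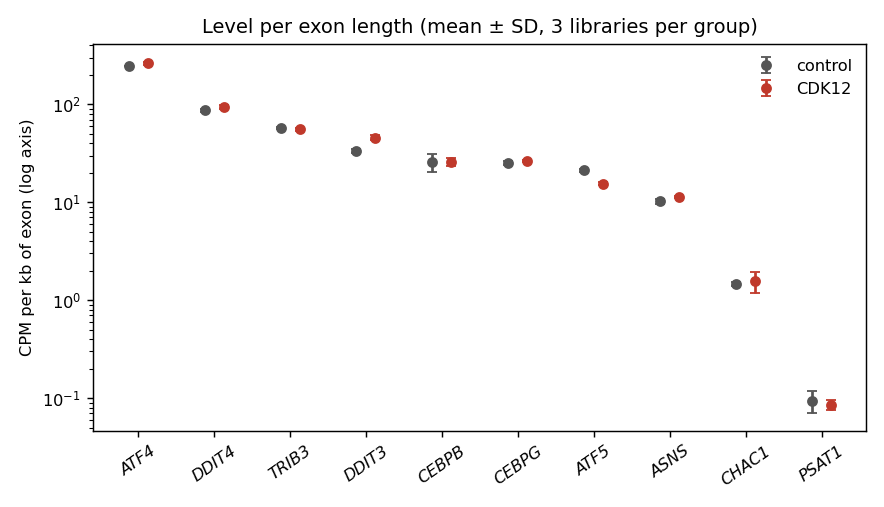
CPM per kilobase of GENCODE 29 exon (log axis) for the 10 genes, ordered by the control level, as mean ± SD of 3 libraries in control (grey) and CDK12 (red) cells. The levels run from 247 for ATF4 to 0.0941 for PSAT1 in controls, and the change between groups is small beside the differences between genes.

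The genes that followed ATF4 and DDIT3 most closely over the 6 libraries were found by the mean absolute difference of centred log2 CPM. The search covered 10554 genes with a mean of at least 5 CPM, leaving out symbols of uncharacterised loci (LOC or orf). Nearest to ATF4 were SUPT20H (0.00746), HOMEZ (0.0102) and TIMMDC1 (0.0105). Nearest to DDIT3 were INAFM2 (0.0307), ZNF331 (0.031) and BEX2 (0.0344). None of these is among the 10 genes. With 6 libraries in 2 groups, the measure mostly orders genes by their fold change, and it is a description only.

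Upstream of ATF4, most kinases and eIF2 genes did not pass the test. Of 22 genes tested, 3 were higher, 3 lower and 16 did not pass, a share of 27.3% against 35.1% of all genes. PPP1R15A (GADD34), which ends the response by bringing a phosphatase to eIF2, rose from 285 ± 12.4 to 338 ± 4.82 CPM (log2 fold change 0.24, adjusted p = 3.95e-05). PPP1CA, a catalytic subunit of that phosphatase, fell from 142 ± 4.81 to 119 ± 4.71 CPM (log2 fold change -0.26). EIF2AK2 (PKR), the double-stranded RNA kinase, was at 51.0, 45.1 and 38.8 CPM in the controls and at 36.6, 34.4 and 33.1 CPM with CDK12. It fell with a log2 fold change of -0.37 (adjusted p = 0.000184), and of -0.27 (adjusted p = 0.00385) without control replicate 1, the library highest in interferon-stimulated genes, to which EIF2AK2 belongs. The part of that interferon level in the fall was not tested. The other 3 eIF2 kinases did not pass, with log2 fold changes of -0.01 for EIF2AK1 (HRI), -0.04 for EIF2AK3 (PERK) and -0.02 for EIF2AK4 (GCN2).

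The remaining calls of that list were weak. PPP1CB (log2 fold change 0.15) lost its call without control replicate 1 (adjusted p = 0.13) or CDK12 replicate 2 (0.149). IMPACT, an inhibitor of GCN2 activation (0.20), lost it with the DESeq2 Wald test (adjusted p = 0.0566) and when control replicate 1 (0.0823), control replicate 3 (0.101) or CDK12 replicate 1 (0.0859) was dropped. GCN1, the activator of GCN2 (-0.12), lost it in 7 settings, 3 of them with a library left out. Without control replicate 1 the list had 1 higher gene, while scaling by upper quartiles or totals gave 5 higher and 2 lower.

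Of 19 genes tested in a list of other ATF and C/EBP factors and factors with related names, 6 were higher and 2 lower. That is 42.1% called against 35.1% of all genes, with a median log2 fold change of 0.06. A difference from all genes was not tested for this or any list below. Membership of a family by protein structure was not checked, for CEBPZ included. CEBPA, a factor of differentiation, rose from 48.8 ± 3.57 to 58.9 ± 1.24 CPM, CEBPZ from 67.8 ± 3.01 to 79.4 ± 5.17 CPM, ATF1 from 27.1 ± 1.22 to 32.0 ± 1.71 CPM and CREB3L4 from 193 ± 3.03 to 219 ± 4.78 CPM. ATF6B and CREB3L1, membrane-bound factors of the ER and Golgi, fell with log2 fold changes of -0.25 and -0.18. ATF3, which lies downstream of ATF4 and is named for that reason, was at 87.0 ± 3.63 and 96.9 ± 4.75 CPM. Its call (log2 fold change 0.16, adjusted p = 0.0118) was lost without control replicate 1 (0.088) or CDK12 replicate 1 (0.0603).

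Of 33 genes listed from textbook knowledge as targets of ATF4 and CHOP beyond the 10 genes, 8 were higher, 6 lower and 19 did not pass. That is 42.4% called against 35.1% of all genes. Whether each listed gene answers to ATF4 or CHOP in these cells was not tested. The list's median was 0.03 in log2. KLHL24 (0.30), the cell death gene BCL2L11 (BIM, 0.28), FAM129A (0.24) and the zinc exporter gene SLC30A1 (0.20) rose on the log2 scale. RAB32, a GTPase gene, fell from 18.3 ± 0.86 to 11.9 ± 0.65 CPM (log2 fold change -0.61) and SARS2 with a log2 fold change of -0.38. SESN2, another brake on mTORC1 and a standard ATF4 target, went from 44.1 ± 2.03 CPM in controls to 40.9 ± 1.18 CPM and did not pass (adjusted p = 0.125). GDF15, a secreted stress cytokine, was at 644 ± 24.3 and 576 ± 43.6 CPM. Its call (log2 fold change -0.16, adjusted p = 0.00771) was lost without control replicate 3 (0.0603) or CDK12 replicate 2 (0.102). Both were named for their place in the pathway after their values were seen.

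Of 27 enzymes of amino acid and one-carbon metabolism tested, 5 were higher, 4 lower and 18 did not pass, a share of 33.3% called, near the 35.1% of all genes. CBS and CTH, which make cysteine from homocysteine, rose from 15.6 ± 0.93 to 19.8 ± 0.75 CPM and from 7.44 ± 0.28 to 9.35 ± 0.18 CPM. The neighbouring enzymes of arginine synthesis parted: ASS1 rose from 126 ± 1.21 to 144 ± 0.89 CPM, while ASL fell from 22.1 ± 0.38 to 15.2 ± 0.68 CPM (log2 fold change -0.54). GPT, a transaminase at low level, rose from 0.825 ± 0.18 to 1.74 ± 0.30 CPM, by 1.07 ± 0.23 (SE) in log2, and MTHFD1, a folate enzyme, fell from 97.5 ± 1.86 to 81.0 ± 1.83 CPM. The median of the list was -0.03, and turned to 0.01 with upper-quartile or total-count scaling.

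Amino acid transporters listed as linked to ATF4 had 4 higher and 2 lower of 13 tested, or 46.2% called against 35.1% of all genes. SLC43A1 rose from 2.19 ± 0.18 to 3.94 ± 0.20 CPM (log2 fold change 0.84), and SLC3A2, the heavy chain of several exchangers, from 377 ± 9.09 to 423 ± 21.2 CPM. Its partner SLC7A5 (log2 fold change 0.14) lost its call without control replicate 2 (adjusted p = 0.0503) or control replicate 3 (0.0552). SLC38A1 (0.11) lost it when control replicate 1 (adjusted p = 0.0771), control replicate 3 (0.227) or CDK12 replicate 2 (0.19) was dropped, and without control replicate 3 the list had 2 higher genes. The glutamine carrier SLC1A5 and the lysosomal SLC38A7 fell with log2 fold changes of -0.17 and -0.22. SLC7A11, the cystine carrier that ATF4 drives, named after its values were seen, did not pass (log2 fold change 0.02, 95% interval -0.11 to 0.15).

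Among the cytosolic aminoacyl-tRNA synthetases and their scaffold proteins, several of which are ATF4 targets, 4 were higher and 6 lower of 23 tested (43.5%, against 35.1% of all genes). HARS fell from 75.4 ± 1.98 to 61.4 ± 2.27 CPM, QARS from 204 ± 6.84 to 172 ± 2.64 CPM, VARS with a log2 fold change of -0.20 and WARS with -0.17. DARS rose from 68.1 ± 2.03 to 78.3 ± 2.80 CPM. The scaffold gene AIMP1 (0.13) lost its call in 4 of the fits with a library left out, control replicate 1 (adjusted p = 0.144), control replicate 3 (0.113), CDK12 replicate 1 (0.0509) and CDK12 replicate 2 (0.106). The order of the counts depends on the scaling: with upper-quartile factors 7 were higher and 4 lower, and with total counts 8 and 4. The number higher was 1 without control replicate 1 or control replicate 3, and 2 without control replicate 2 or CDK12 replicate 2.

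The ER chaperones and degradation genes, which report the other arms of the unfolded protein response, had 3 higher, 5 lower and 22 not passing of 30 tested, 26.7% called against 35.1% of all genes. XBP1, the factor of the IRE1 arm, rose with a log2 fold change of 0.32, and ERO1B, an ER oxidase, from 53.6 ± 2.83 to 62.1 ± 4.30 CPM. SDF2L1 fell from 13.4 ± 1.45 to 9.47 ± 0.14 CPM, and CALR (-0.19), WFS1 (-0.20) and OS9 (-0.18) fell on the log2 scale. HSPA5 (BiP), the main chaperone of the ER and named as its standard marker, had means of 543 ± 8.42 CPM in controls and 525 ± 16.3 CPM with CDK12 and did not pass (95% interval of the log2 fold change -0.13 to 0.03, adjusted p = 0.358). Under upper-quartile or total-count scaling 5 genes were higher and 5 lower, and the median moved from -0.03 to 0.002 and 0.007.

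Around DDIT4, genes that control mTORC1 were called lower more often than higher, 9 against 2 of 32 tested, a share of 34.4% against 35.1% of all genes. Of all genes, 18.9% were called lower and 16.2% higher. With 1 library left out, 6 to 10 genes of the list were lower and 2 higher. Upper-quartile factors and total counts each gave 7 lower and 3 higher. The median log2 fold change was -0.09, and -0.05 and -0.04 with upper-quartile factors and total counts. DEPTOR, an inhibitor of mTOR, fell from 465 ± 8.01 to 397 ± 9.60 CPM, AKT1S1 (PRAS40), another inhibitor, from 131 ± 4.10 to 114 ± 1.38 CPM, and the lysosomal anchor gene LAMTOR5 from 36.8 ± 1.24 to 30.7 ± 1.5 CPM. GATSL3 (CASTOR1), the arginine sensor, fell with a log2 fold change of -0.30. TXNIP rose from 432 ± 5.13 to 567 ± 3.49 CPM and RRAGD, a Rag GTPase, from 16.0 ± 1.10 to 24.3 ± 0.65 CPM (log2 fold change 0.60).

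**Figure D4:**
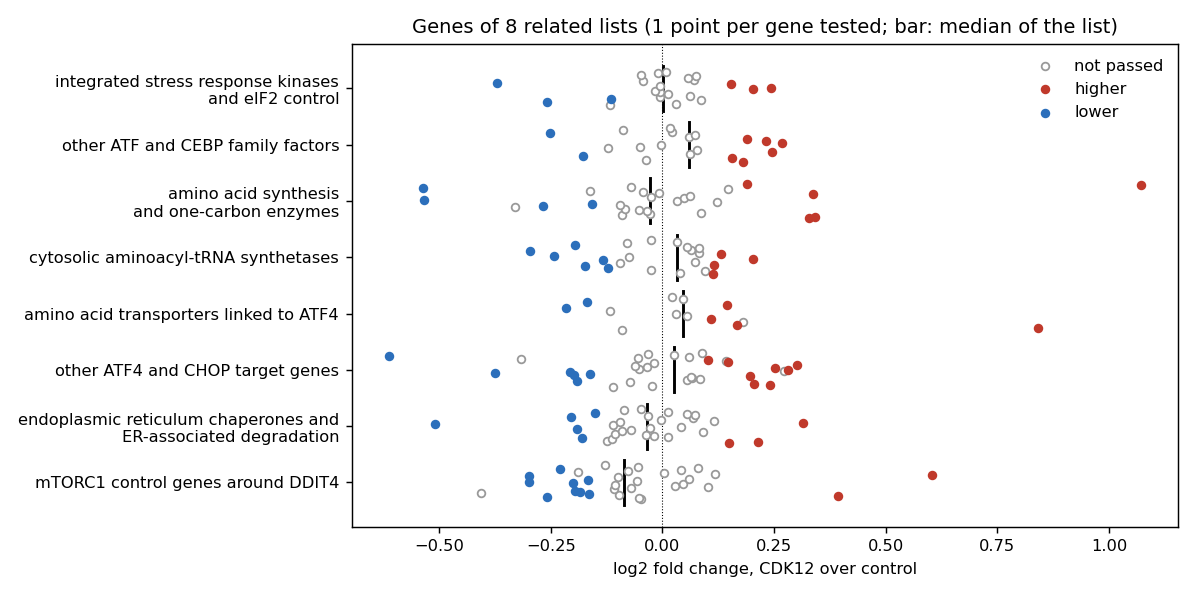
Log2 fold change of CDK12 over control (horizontal axis) for each gene tested in 8 related lists (rows). Red points passed an adjusted p of 0.05 as higher, blue points as lower and open points did not pass, and black bars are list medians, which run from -0.09 (mTORC1 control) to 0.06 (other ATF and C/EBP factors).

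The processing alternatives part the 4 genes with the clearest differences. DDIT3 and ATF5 kept their calls in all 14 alternatives, the 6 fits with a library left out included, whereas DDIT4 lost its call in 4 and ATF4 gained one in 3.

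**Figure D5:**
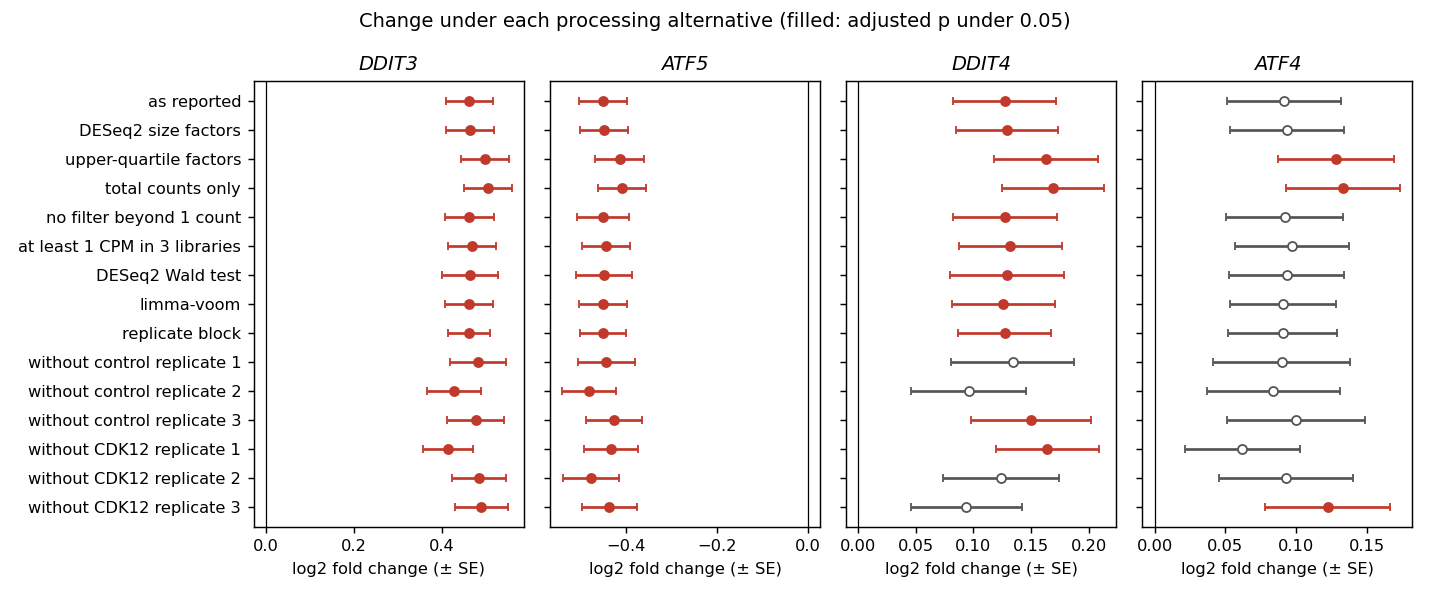
Log2 fold change ± SE (horizontal axes, scaled separately) of DDIT3, ATF5, DDIT4 and ATF4 in the reported fit and in 14 alternatives (rows). Filled points passed an adjusted p of 0.05. DDIT3 stays at 0.42 to 0.51 and ATF5 at -0.48 to -0.41, while DDIT4 and ATF4 change sides of the threshold.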

How the data were processed

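The authors deposited raw read counts per gene symbol, 1 file per library, per the file headers and values. Per the submitters' processing notes, CASAVA 1.8, STAR 2.6.0c and featureCounts of Subread 1.6.2 were used with build hg19. The sources used here do not state the strand setting, the annotation or how reads with several map positions were handled, so ATF4, ASNS and PSAT1, which have pseudogene copies in GENCODE 29, and genes that overlap others are less certain.

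Genes were filtered with filterByExpr (minimum count 10, minimum total 15), leaving 14665, scaled by TMM and compared with the quasi-likelihood F test of edgeR 4.0.16, group as the only term, two-sided, Benjamini-Hochberg over all genes. SE is the fold change over the root of F. The alternatives were 3 scalings, 2 filters, the Wald test of DESeq2 1.42.0, voom of limma 3.58.1, the replicate number as a block and each library left out. On simulated counts of this comparison (14522 genes) the test recovered 52% of genes changed 1.2-fold, 74% of those changed 1.5-fold and 100% of those changed 2-fold. False calls made up 4.71%. No 2 libraries of a group agreed within sampling noise. The chi-square per degree of freedom, which grows with disagreement, was 4.55 and 4.44 for the pairs with CDK12 replicate 1. It was 2.74 for CDK12 replicates 2 and 3 and 2.87 to 2.92 for the control pairs. Without CDK12 replicate 1 the log2 fold changes of ATF4 (0.062) and DDIT3 (0.415) were the lowest of the 14 alternatives. The 10 genes and 8 lists (208 symbols, all matched, some by older symbols) were chosen with earlier results of these data known. Named were the 10 genes, CDK12, per list up to 4 called genes of smallest p in the direction of most calls and 2 in the other (4 each where tied), and the 3 genes nearest ATF4 and DDIT3 (at least 5 CPM); others are said to be chosen otherwise.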

Additional observations from a re-analysis of the deposited data

How the results depend on the processing

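Of the 20 counts of genes called (higher and lower, over all genes, the 10 genes and the 8 lists), compared under 14 alternatives each, 263 of 280 values stayed within 1.5 times the reported count. With upper-quartile factors and with total counts, the number higher was 4 and 4 for the 10 genes, 5 and 5 for the eIF2 control list, 7 and 8 for the synthetases and 5 and 5 for the ER list. These scalings raised the median over all genes by 0.04 on the log2 scale, and higher genes made up 59.6% and 61.7% of calls against 46.1%. With 1 library left out, the number higher ran from 1 to 2 for the 10 genes, 1 to 3 for eIF2 control, 1 to 3 for synthetases and 2 to 4 for transporters. TRIB3 changed sign with total counts (log2 fold change 0.000613). CEBPB did so with upper-quartile factors (0.0218), total counts (0.0281) and limma-voom (0.00254). With a library left out, CEBPB ran from -0.156 to 0.165, CHAC1 from -0.109 to 0.233 and SLC7A11 from -0.0664 to 0.111, with sign changes without CDK12 replicate 3 (CEBPB, CHAC1), CDK12 replicate 2 (CEBPB, SLC7A11) or control replicate 3 (CEBPB, SLC7A11). None of these 4 genes passed in any alternative. The causes were not tested.

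Replicate numbers are shared between the groups in the labels, but deviations of same-numbered libraries correlated at -0.07, 0.06 and 0.03, and not every library correlated best with its own number, so they were not treated as pairs. With the replicate block, 5106 genes were called against 5143 and the calls of the 10 genes were 2 higher and 1 lower. GCN1 lost its call with the replicate block (adjusted p = 0.0606), with upper-quartile factors (0.158), total counts (0.188) and DESeq2 (0.0579), and when control replicate 1 (0.206), control replicate 3 (0.0617) or CDK12 replicate 1 (0.203) was left out. The lowest counts among the 10 genes were those of CHAC1, 61 to 98 a library, and PSAT1, 4 to 6. The level of 3 counts covers counting error only, while the 95% intervals also include the spread between libraries.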

Other observations

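Set against ATF4 within each library, a measure that needs no scaling and was chosen after the values were seen, DDIT3 had 72.3, 67.2 and 70.6 counts per 1000 ATF4 counts in the controls and 92.6, 88.2 and 91.0 with CDK12. ATF5 had 88.9, 84.8 and 89.5 per 1000 in the controls and 56.7, 62.7 and 61.8 with CDK12. In the controls ATF5 had more counts than DDIT3 in every library, and with CDK12 fewer in every library, from 1.23 to 1.27 ATF5 counts per DDIT3 count to 0.612 to 0.711. TRIB3, which did not pass the test, had 266 to 271 counts per 1000 ATF4 counts in the controls and 233 to 258 with CDK12, without overlap. ASNS, DDIT4, CEBPG, CEBPB and CHAC1 overlapped on this measure. A ratio shows unequal change of 2 transcripts and not which of them moved.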
